A study of Mus musculus with 27 samples.

Results

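A pair of mouse embryonic fibroblast lines without their own PKBalpha was compared 4 h after gamma irradiation with 10 Gy. The first is the line labelled PKBa -/- R, called line R here, in which PKBalpha had been reconstituted in a knockout background per the labels. The second is the knockout line labelled PKBa -/-. Each gave 3 arrays, which were 6 of the 27 arrays of the study, and both groups had received the same dose and the same 4 h of recovery. The comparison therefore holds what already differed between the untreated lines and any difference in their response. The 6 arrays were picked by their sample titles, but earlier results of these data were known when the comparison was chosen. The other arrays hold both lines untreated and 24 h after 10 Gy, and a PKBalpha wild-type line at the same 3 stages, with 3 biological replicates a group per the labels. All cells were female and at passage 45, per the labels, and were grown with 10% fetal calf serum for 24 h before irradiation. Each genotype was represented by a single line, and the spread between replicates says nothing of how other lines of that genotype would vary.

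PKBalpha, the product of Akt1, is a serine/threonine kinase that acts below PI3 kinase. Growth factor receptors activate PI3 kinase, its lipid product brings PKBalpha to the membrane, and the kinase then acts on regulators of survival, growth, metabolism and the cell cycle, among them the FOXO transcription factors. Embryonic fibroblasts also express the related kinase Akt2. In many cell types ionizing radiation breaks DNA and activates p53, whose targets include the cell cycle inhibitor Cdkn1a and the p53 ligase Mdm2.

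RNA was measured on Affymetrix arrays as linear intensities in arbitrary units. The 6 compared arrays had medians from 54.7 to 66.6, and none had a high ratio of 3' to 5' signal for the control gene Gapdh, a sign of RNA quality. Replicate arrays correlated at 0.982 to 0.989 within line R and at 0.987 to 0.991 within the knockout, against 0.958 to 0.968 between the lines. These correlations are over genes whose mean over all 27 arrays was above the background level given next, so dim genes are left out. An intensity of 69.9, the highest value of 13 probe sets for Y-linked genes on all arrays, was taken as the background level. All 12 fibroblast markers measured were above background in at least 1 of the lines, and their summed intensity was 142352 to 148038 in line R and 141947 to 161658 in the knockout. Of the 12, Thy1 (4969 in line R, 10052 in the knockout, difference -1.02 ± 0.24, adjusted p = 0.023) and Dcn, described below, were called lower. The Thy1 call was lost whichever array was left out (adjusted p up to 0.092). No mesothelial, epithelial, endothelial or pluripotent marker was above background in either line. The summed level of 7 cartilage or bone markers was 911.6 to 995.8 in line R and 680.3 to 763.7 in the knockout, with 3 above background, Acan and Col2a1 below it in both lines and 0 called, and its part in the results was not tested. In cultures measured in bulk, fewer cells of a type and less RNA per cell cannot be told apart.

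Akt1 RNA did not separate line R from the knockout on its brightest probe set. That probe set gave 6.25, 34.6 and 34.7 in line R and 22.8, 34.1 and 65.5 in the knockout, all below background, against 4502, 4546 and 3540 (geometric mean 4169) in the wild type at 4 h. The adjusted p of the difference between line R and the knockout was 0.735. The other probe set that was bright in the wild type gave 62.8, 80.8 and 63.5 in line R, against 31.4, 1.68 and 25.5 in the knockout and a geometric mean of 2372 in the wild type. All 3 arrays of line R lay above the 3 knockout arrays there, by 2.64 ± 0.80 on the log2 scale (SE), and the difference did not pass the test (adjusted p = 0.11 over all probe sets). In untreated cells the same probe set passed it, at a geometric mean of 55.8 in line R, below background, against 2.36 in the knockout (4.56 ± 0.80, adjusted p = 0.0042), and at 24 h it did not (2.37 ± 0.80, adjusted p = 0.13). A dim probe set gave 78.4, 79.2 and 44.9 in line R, against 38.6, 28.1 and 16.6 in the knockout, and passed it (difference 1.32 ± 0.28, adjusted p = 0.017), with levels around background in line R and a geometric mean of 105 in the wild type. That difference was 0.11 in untreated cells (adjusted p = 0.94) and had the opposite sign at 24 h, with 36.6 in line R and 72.0 in the knockout (-0.98, adjusted p = 0.066). On the last of the 4 probe sets all 3 lines were below background. The labels do not say from what sequence PKBalpha was reconstituted or which part of Akt1 the knockout lacks, so whether these probe sets can detect the reconstituted RNA was not tested, and line R is a name taken from the labels throughout. Akt2 gave 694, 704 and 634 in line R, against 658, 634 and 809 in the knockout, with overlapping arrays (difference -0.04 ± 0.14, adjusted p = 0.95).

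**Figure D1:**
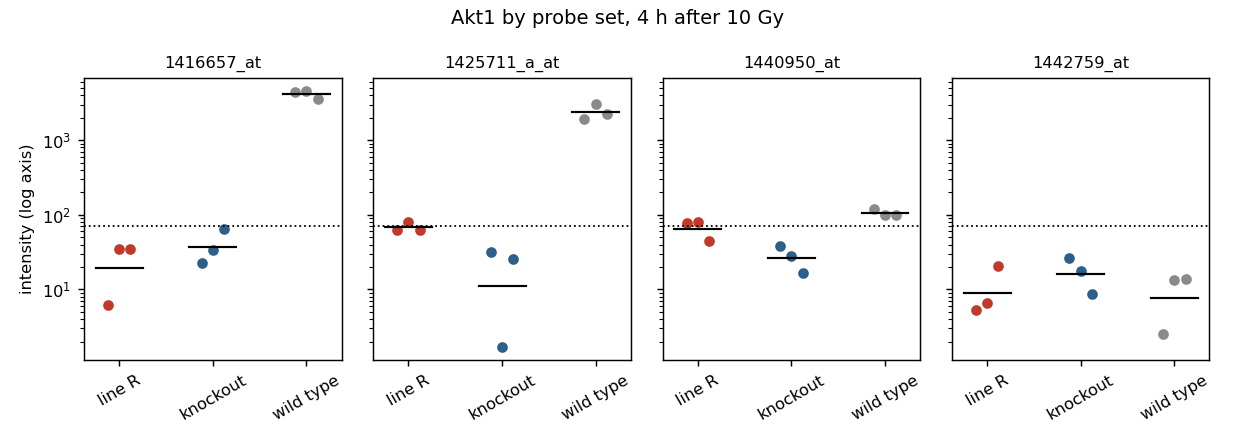
Intensity (log axis) of the 4 Akt1 probe sets 4 h after 10 Gy in line R, the knockout and the wild type, ordered by the wild-type level; points are arrays, bars are geometric means of 3 arrays and the dotted line is the background level of 69.9. The arrays of line R stay within 6.25 to 80.8 on the probe sets that gave geometric means of 4169 and 2372 in the wild type.

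Of 18193 genes, 615 (3.38%) differed between line R and the knockout 4 h after irradiation at an adjusted p below 0.05 (limma, Benjamini-Hochberg), 338 (1.86%) higher and 277 (1.52%) lower in line R. With all array medians set equal the split was 132 higher and 374 lower, as the median of all genes then moved to -0.10, against 0.05 here. Among the largest differences, the metalloproteases Mmp2 and Mmp3, the acute phase protein Saa3 and the contractile actin Actg2 were at least 10 times lower, and the membrane protein Itm2a and the growth factor Bmp4 were over 4 times higher. In 614 of the 615, all 3 arrays of a line lay beyond the 3 of the other, which held for 30.4% of all genes tested. The 615 were called on these same arrays, so their separation follows largely from that choice and is no further evidence. In 287 the difference exceeded 2-fold, and in 187 it still did when levels below background were set to the background level. Both lines were below background in 47. The count fell to between 267 and 336 whichever of the 6 arrays was left out, and was 1440 without 5 arrays of other groups that had a high Gapdh ratio, 608 of which were among the 615.

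Most of these genes differed the same way in the other stages, which were measured on other arrays of the same lines. Of the 615, 604 (98.2%) had the same sign in untreated cells and 607 (98.7%) at 24 h, against 68.8% and 66.3% of all genes. In untreated cells 690 genes (3.79%) were called between the lines, 2.18% of all higher and 1.62% lower, and at 24 h 959 (5.27%), 3.17% higher and 2.1% lower. The 615 shared 381 calls of the same direction with untreated cells, which is 62% of the 615 and 55.2% of the 690, and 405 with 24 h, which is 65.9% of the 615 and 42.2% of the 959. In all 3 stages 330 were called the same way, 159 were called at 4 h alone, and 0 were called in opposite directions. No gene passed the test that the difference between the lines at 4 h differs from that in untreated cells (0 called by limma, 537 at an unadjusted p below 0.05) or from that at 24 h (0 called, 624 at an unadjusted p below 0.05). Some arrays of these lines at the other stages had a high Gapdh ratio. Without the 5 such arrays of the study both tests again called 0. Calls at 4 h alone are therefore not shown to be differences particular to that time.

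**Figure D2:**
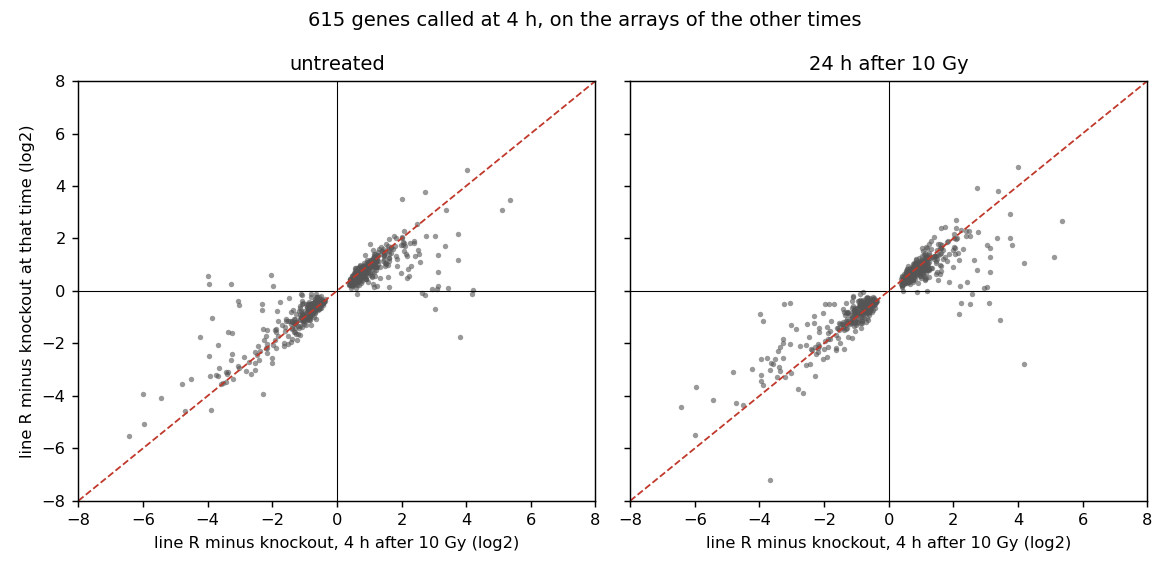
Difference between line R and the knockout (log2) of the 615 genes called at 4 h, with the 4 h value on the horizontal axis and the value in untreated cells (left) or 24 h after 10 Gy (right) on the vertical axis; each point is a gene and the dashed line marks equal values. Of the 615, 604 keep their sign in untreated cells and 607 at 24 h.

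The wild type gives a further level for each gene. On the untreated arrays, which are not the arrays compared here, 3202 genes (17.6%) were called between the wild type and the knockout. Both comparisons subtract the same knockout line, so a level particular to that line counts as toward the wild type in both. The shares that follow are therefore a description and no test of a shift of line R toward the wild type. There 238 of the 338 genes higher in line R (70.4%) lay above the knockout in the wild type too. Over all genes the wild type and line R lay on the same side of the knockout in 53.1%. Of these 338, 128 (37.9%) were called toward the wild type and 29 (8.58%) away from it, against 10.5% and 7.12% of all genes. Of the 277 genes lower in line R, 148 (53.4%) had the sign of the wild type, with 71 (25.6%) called toward it and 71 (25.6%) away. At 4 h itself the comparison of the wild type with the knockout shares the knockout arrays, so only levels are set side by side.

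Mmp3 and Mmp2, both matrix metalloproteases, were among the genes lowest in line R relative to the knockout. These secreted enzymes cleave collagens, proteoglycans and other matrix proteins, and TIMP proteins inhibit them. Mmp3, stromelysin, gave 86.4, 57.2 and 74.5 in line R, against 1294, 1250 and 818 in the knockout and a geometric mean of 2404 in the wild type (difference -3.94 ± 0.31, adjusted p = 2.5e-07). The gelatinase Mmp2 gave 55.6, 38.7 and 15.5 in line R, against 846, 848 and 832 in the knockout and a geometric mean of 935 in the wild type. Both were thus around or below background in line R and well above it in both other lines, and for Mmp2 this is at least 12.1-fold lower. Mmp13, a collagenase, gave 17.6, 15.2 and 23.6 in line R, against 130, 128 and 128 in the knockout (at least 1.84-fold lower, adjusted p = 0.0042) and 510 in the wild type. Of 35 measured metalloproteases and TIMPs, 4 fell, these 3 and Adamts7 (153.9 in line R, 370 in the knockout), and 1 rose, the inhibitor Timp3 (1900 in line R, 926 in the knockout, difference 1.04 ± 0.20, adjusted p = 0.0048), which was not called with the 6 arrays alone or with averaged probe sets (1.06). Called members were 14.3% of the list, against 3.38% of all genes (1.86% higher and 1.52% lower). The share called in each list below is to be read beside that 3.38%. The median difference of this list was -0.05, against 0.05 for all genes. Timp2 (12363 in line R, 11252 in the knockout, adjusted p = 0.62) and Timp1 (6644 and 9782, adjusted p = 0.32) did not pass the test.

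The 250 bases before the start of Mmp3, Mmp13, Saa3 and Ptgs2 are shown because these are called lower genes of the protease and inflammatory lists whose promoters are known to be bound by AP-1 or C/EBP factors. Sequences are from RefSeq (GRCm38.p6), 5′ to 3′ on the strand of the gene, and capitals mark each match to the AP-1 motif TGANTCA or the C/EBP motif TTGCNNAA on either strand.
Mmp3, chr9:7445572-7445821, plus strand: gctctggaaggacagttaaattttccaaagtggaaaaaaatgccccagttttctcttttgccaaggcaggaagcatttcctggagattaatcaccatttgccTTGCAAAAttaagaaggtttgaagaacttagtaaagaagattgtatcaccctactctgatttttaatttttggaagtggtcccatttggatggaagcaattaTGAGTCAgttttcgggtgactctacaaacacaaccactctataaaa
Mmp13, chr9:7272264-7272513, plus strand: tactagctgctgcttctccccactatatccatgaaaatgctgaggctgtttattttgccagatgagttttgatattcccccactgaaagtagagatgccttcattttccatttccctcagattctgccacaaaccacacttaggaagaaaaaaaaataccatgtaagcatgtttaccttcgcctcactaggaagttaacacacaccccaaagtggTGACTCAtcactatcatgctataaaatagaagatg
Saa3, chr7:46715677-46715926, minus strand: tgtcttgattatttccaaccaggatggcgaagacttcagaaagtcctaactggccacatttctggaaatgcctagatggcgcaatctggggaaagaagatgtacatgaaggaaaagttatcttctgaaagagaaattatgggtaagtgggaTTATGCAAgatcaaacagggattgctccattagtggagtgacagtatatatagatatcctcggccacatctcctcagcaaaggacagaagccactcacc
Ptgs2, chr1:150099781-150100030, plus strand: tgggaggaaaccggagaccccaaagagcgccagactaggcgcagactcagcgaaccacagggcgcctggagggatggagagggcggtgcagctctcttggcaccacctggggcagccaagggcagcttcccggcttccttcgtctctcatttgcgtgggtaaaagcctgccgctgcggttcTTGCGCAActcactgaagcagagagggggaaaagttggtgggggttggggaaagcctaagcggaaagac
The AP-1 match lay 46 bases before the start of Mmp3 and 35 before that of Mmp13, and the C/EBP match 148 bases before Mmp3, 99 before Saa3 and 69 before Ptgs2. The window of Saa3 also held, in lower case, 1 match to the sterol element TCACNCCAC 67 bases before the start. AP-1 matches were in 6.23% of 305 promoters of genes lower in line R, in 5.43% of 350 promoters of genes higher, and in 6.75% of all 32851 promoters. For C/EBP these shares were 9.51%, 8.86% and 9.56%, for the sterol element 2.62%, 0.571% and 1.05%, and for an NF-kappaB motif 0%, 0% and 0.356%. A promoter was found for 486 of the 615 genes, some with several, and a match is a description of the letters and not a site.

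All called members of the list of chemokines and NF-kappaB genes and of the list of prostaglandin genes were lower in line R. Saa3 gave 328, 259.6 and 341 in line R, against 3877, 3912 and 3993 in the knockout and 12411 in the wild type (difference -3.68 ± 0.14, adjusted p = 4.3e-12), the smallest p of the comparison among the genes named here. The secreted antagonist of the interleukin-1 receptor, Il1rn, gave 74.8, 60.4 and 39.2 in line R, against 547, 587 and 439 in the knockout (at least 7.45-fold lower, adjusted p = 0.00084). The knockout was the high line for this gene, since the wild type had a geometric mean of 136. Of 40 measured chemokines and NF-kappaB genes 5 fell and 0 rose: Saa3, the siderophore-binding Lcn2 (211 in line R, 1180 in the knockout, 360 in the wild type, adjusted p = 0.036), the chemokine Cxcl16, and Tnfaip3 and Tnfaip2, which are induced by tumour necrosis factor. These were 12.5% of the list, against 3.38% of all genes, and its median difference was -0.568. Of the 28 members above background 19 were negative, against 4836 of 10323 genes above background. Of 19 measured prostaglandin genes 3 (15.8%) fell. Ptgs2, the inducible cyclooxygenase, gave 2433, 1379 and 2055 in line R, against 6130, 6026 and 5507 in the knockout (difference -1.63 ± 0.43, adjusted p = 0.043). Ptges, which makes prostaglandin E2, was below background in line R at 57.8, against 280.1 in the knockout (at least 4.01-fold lower, adjusted p = 0.027), and the prostaglandin E2 receptor Ptger4 averaged 616 and 1173. All 5 members of this list above background were negative.

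Tlr4 and Ifih1, both among the 30 largest differences, were higher in line R. Tlr4, the receptor for bacterial lipopolysaccharide, gave 250.7, 338 and 241 in line R, against 52.4, 53.8 and 103.4 in the knockout (at least 3.91-fold higher, adjusted p = 0.00014), with 289.8 in the wild type. Ifih1, which senses double-stranded RNA in the cytosol, gave 365, 292 and 385 in line R, against 59.8, 102.9 and 96.3 in the knockout (difference 2.04 ± 0.34, adjusted p = 0.0016), with 65.3 in the wild type. Tlr4 in line R was thus near the wild-type level, and Ifih1 above both other lines. Of 41 measured interferon-stimulated genes 12.2% were called, against 3.38% of all genes, with a list median of 0.09. The 3 that rose were Ifih1, Ddx58 (574 in line R, 311 in the knockout) and Oasl2 (95.1 in line R, below background in the knockout). The 2 that fell were Trim25, whose mean was below background in both lines, and Ifit2 (580.5 in line R, 949 in the knockout). Of 8 macrophage or leukocyte markers 2, Csf1r and Cd14, were above background, and the other 6, Ptprc and Adgre1 among them, were below it in both lines. The summed level of the 8 was 396.5 to 476.8 in line R and 522.6 to 571.2 in the knockout, and its part in these results was not tested.

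Several of these calls were lost when 1 of the 6 arrays was left out, which also lowered the count of all calls. Lcn2, Ptgs2 and Ptges lost their call whichever of the 6 arrays was left out (adjusted p up to 0.16, 0.18 and 0.096). Cxcl16 lost it without knockout replicate 1 or line R replicate 2 (up to 0.054), Tnfaip3 without replicate 1 of either line (up to 0.076), Tnfaip2 without knockout replicates 1 or 2 or line R replicates 1 or 2 (up to 0.097) and Ptger4 without knockout replicate 1 or line R replicates 1 or 2 (up to 0.075). Ddx58 lost it without knockout replicates 1 or 2 or line R replicate 1 (up to 0.13), Oasl2 without any array but knockout replicate 2 (up to 0.10), Trim25 without any array but line R replicate 0 (up to 0.12) and Ifit2 without knockout replicates 1 or 2 or line R replicates 1 or 2 (up to 0.13). Lcn2 was also the 1 gene of the 30 with the largest differences that was not called at 24 h (-1.77, adjusted p = 0.12).

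**Figure D3:**
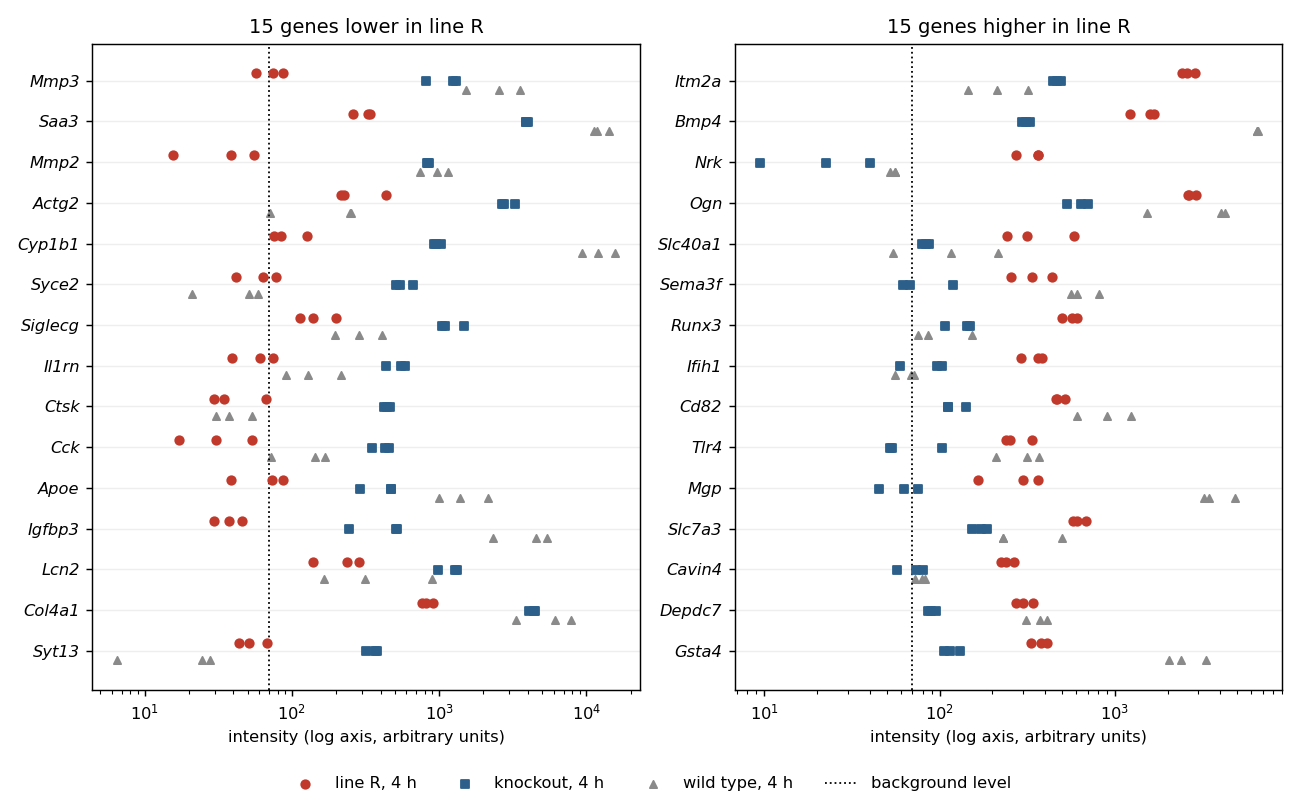
Intensity (log axis) on each array 4 h after 10 Gy of the 15 genes with the largest called differences in each direction; red circles are line R, blue squares the knockout, grey triangles the wild type, and the dotted line is the background level of 69.9. The 30 genes were chosen among those whose 3 arrays of line R lie beyond the 3 knockout arrays, so that separation is a condition and not a result. The wild type lies on either side.

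Structural matrix genes did not move as a group. Basement membrane collagen IV was lower in line R, where Col4a1 gave 820, 769 and 903, against 4111, 4462 and 4401 in the knockout (difference -2.38 ± 0.40, adjusted p = 0.0018), and Col4a2 averaged 341, against 1568 in the knockout (-2.20 ± 0.35, adjusted p = 0.0012). These were the 2 called of 34 measured collagen chains (5.88%, against 3.38% of all genes). Fibrillar Col1a1 was at 13720 in line R and 13587 in the knockout (difference 0.01, adjusted p = 0.99). Among 54 elastic fibre, proteoglycan and matricellular genes 2 rose and 3 fell (9.26% called), with a list median of -0.05. Mgp, matrix Gla protein, an inhibitor of calcification, gave 300.4, 164.8 and 363.5 in line R, against 75.1, 45.0 and 62.8 in the knockout (at least 3.75-fold higher, adjusted p = 0.0011). The small proteoglycan Ogn gave 2644, 2891 and 2611 in line R, against 706, 536.5 and 638 in the knockout (difference 2.12 ± 0.34, adjusted p = 0.0012). The wild type had 3779 for Mgp and 2961 for Ogn, so Ogn was near its level in line R and Mgp far below it. Decorin, Dcn, went the opposite way at 757, 443 and 711 in line R, against 2609, 2632 and 1822 in the knockout (difference -1.91 ± 0.27, adjusted p = 0.00045), and was not called with averaged probe sets (-1.82). The microfibril protein Mfap5 (107.2 in line R, 329 in the knockout) and the elastic fibre protein Fbln5 (2278 in line R, 4722 in the knockout) were lower too, the Fbln5 call being lost whichever array was left out (adjusted p up to 0.077).

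The smooth muscle genes called at 4 h were lower in line R. Enteric smooth muscle actin, Actg2, gave 214, 434 and 227 in line R, against 2663, 2777 and 3258 in the knockout and a mean of 164 in the wild type (difference -3.38 ± 0.54, adjusted p = 0.0012). Calponin, Cnn1, which binds actin and myosin, was below background on all arrays of line R, against 117, 63.6 and 135 in the knockout and 1083 in the wild type (at least 1.44-fold lower, adjusted p = 0.00024). The myosin light chain Myl9 averaged 4392 in line R, against 10850 in the knockout and 775 in the wild type, and its call (adjusted p = 0.015) was lost without knockout replicates 1 or 2 or line R replicates 0 or 2 (up to 0.069). These were the 3 called of 19 measured (15.8%, against 3.38% of all genes), with a list median of -0.18. The summed level of 6 smooth muscle or myofibroblast markers, 5 of them above background and Actg2 and Cnn1 among them, was 35390 to 36854 in line R and 44130 to 51384 in the knockout. Acta2 was at 24846 in line R and 31176 in the knockout (adjusted p = 0.46), and Myh11 was below background in both. The marker Des went the opposite way without passing the test. It gave 81.8, 128 and 71.2 in line R, against 23.9, 6.70 and 8.45 in the knockout (difference 3.03, adjusted p = 0.061). At 24 h 2 of the 19 list members were called higher and 3 lower.

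Of 70 adhesion and guidance genes 2 rose and 2 fell (5.71%, against 3.38% of all genes), with a list median of -0.185. Sema3f, a repelling guidance factor, gave 337.5, 256 and 436 in line R, against 67.5, 119 and 61.6 in the knockout (difference 2.08 ± 0.53, adjusted p = 0.034), and the guidance receptor Robo1 averaged 269 and 108.8. The collagen-binding integrin chain Itga1 gave 119, 78.5 and 77.0 in line R, against 363, 272 and 365 in the knockout (difference -1.88 ± 0.27, adjusted p = 0.00047), and was not called with averaged probe sets (-0.98). Sema3f lost its call whichever array was left out (adjusted p up to 0.14), and it was the 1 gene of the 30 with the largest differences that was not called in untreated cells (1.52, adjusted p = 0.14). Robo1 lost it without knockout replicate 1 (0.050), and P-cadherin, Cdh3 (125.5 in line R, 218 in the knockout), without knockout replicates 0 or 2 or line R replicates 1 or 2 (up to 0.14).

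Secreted signals and their receptors differed in both directions. The ligand Bmp4 gave 1590, 1217 and 1673 in line R, against 312.5, 295 and 326.5 in the knockout and 6475 in the wild type (difference 2.25 ± 0.29, adjusted p = 0.00015). The ligand Tgfb2 gave 775, 851 and 818 in line R, against 421.5, 307 and 317 in the knockout (1.24 ± 0.22, adjusted p = 0.0028), and the receptor Tgfbr2 averaged 4243 and 2430 (0.80 ± 0.16, adjusted p = 0.0058), a call that was lost with the 6 arrays alone, with equal array medians, relative to its block and with averaged probe sets (0.53). Tgfbi, which TGF-beta induces and which is secreted into the matrix, was lower at 1308, 1300 and 1312 in line R, against 3618, 3461 and 3125 in the knockout (-1.38 ± 0.20, adjusted p = 0.00049). Of 42 measured TGF-beta and BMP genes 3 rose and 4 fell (16.7% called, against 3.38% of all genes), with a median of -0.22. The other 3 that fell were Bmper, which binds BMPs outside the cell (281 in line R, 730 in the knockout), the protease Bmp1 (753 and 1652) and the receptor Bmpr1b (190.5 and 416). Bmper lost its call without knockout replicate 0 or line R replicate 1 (adjusted p up to 0.076), Bmp1 without knockout replicates 0 or 2 or line R replicates 0 or 2 (up to 0.065) and Bmpr1b without any 1 of the 6 (up to 0.16).

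Of the binding proteins of insulin-like growth factors, 3 were lower in line R. Igfbp3 was below background there at 45.9, 29.4 and 37.6, against 508, 515 and 243 in the knockout and 3847 in the wild type (at least 5.71-fold lower, adjusted p = 0.0012). Igfbp4 gave 138, 157 and 103 in line R, against 387.5, 332 and 590 in the knockout and 8931 in the wild type (difference -1.70 ± 0.43, adjusted p = 0.032), and Igfbp6 averaged 76.6 and 206. For Igfbp3 and Igfbp4 the levels of line R were thus farther from the wild type than those of the knockout. Of 20 IGF axis genes 4 fell and 1 rose (25% called, against 3.38% of all genes), with a list median of -0.305. The 4 were the 3 binding proteins and the glycoprotein Stc1, which was below background in line R and at 101.9 in the knockout. The 1 that rose was the protease Htra1 (2597 in line R, 1493 in the knockout). Igfbp4 and Igfbp6 lost their calls whichever array was left out (adjusted p up to 0.14 and 0.17), and Htra1 without knockout replicates 0 or 1 or line R replicates 1 or 2 (up to 0.076).

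Of 47 growth factors and receptors 0 rose and 2 fell (4.26%, against 3.38% of all genes), with a median of -0.11. The receptor Egfr gave 94.3, 95.8 and 107 in line R, against 228, 228 and 224.5 in the knockout and 1168 in the wild type (difference -1.20 ± 0.13, adjusted p = 2.2e-05). The neurotrophic ligand Gdnf was below background in line R, against 315, 269.5 and 279 in the knockout (at least 4.11-fold lower, adjusted p = 0.001). Of 41 Wnt genes (9.76% called) 1 rose, the ligand Wnt9a (147 in line R, 66.1 and below background in the knockout). Another 3 fell, and the list's median was 0.08, or -0.23 over the 24 above background. These were the secreted Wnt antagonist Sfrp2 (124 in line R, 327 in the knockout), the antagonist Sfrp1 (below background in line R, 84.7 in the knockout) and the receptor Lgr5, which was below background in both lines. Wnt9a lost its call whichever array was left out (adjusted p up to 0.13), Sfrp2 without line R replicate 0 or any knockout array (up to 0.12) and Sfrp1 without line R replicate 2 or any knockout array (up to 0.14).

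Lineage transcription factors differed in single members. Runx3, a Runt factor of T cells, cartilage and neurons, gave 569, 604.5 and 502.5 in line R, against 143, 149 and 107 in the knockout and 99.9 in the wild type (difference 2.08 ± 0.36, adjusted p = 0.0021). Shox2, a factor of the limb bud, gave 2917, 2734 and 2810 in line R, against 1820, 1765 and 1762 in the knockout (0.66 ± 0.16, adjusted p = 0.023). Tbx18, a T-box factor of the epicardium and ureter mesenchyme, gave 552, 618 and 643 in line R, against 1105, 1033 and 1160 in the knockout (-0.86 ± 0.14, adjusted p = 0.0014). Of 67 patterning and lineage factors 8.96% were called, against 3.38% of all genes. Of the 67, 4 rose, with Osr2, below background in both lines, and Ebf3 as the others. Another 2 fell, Tbx18 and Meis1, and the list's median was 0.05. Shox2, Ebf3 and Meis1 had small differences, with 188 in line R and 123 in the knockout for Ebf3 and 157 and 252.5 for Meis1. Shox2 and Ebf3 lost their calls whichever array was left out (adjusted p up to 0.088 and 0.15), Meis1 without any array but line R replicate 1 (up to 0.20) and Osr2 without knockout replicates 0 or 2 or line R replicates 0 or 1 (up to 0.072). Of 21 imprinted growth genes (14.3% called) 2 rose and 1, Dcn, fell. Necdin, Ndn, gave 1012, 1175 and 970.5 in line R, against 372, 403 and 340 in the knockout (2.83-fold, adjusted p = 3.9e-05), and was near its wild-type level of 942. Impact averaged 2286 in line R and 1685 in the knockout, and lost its call without any array but line R replicate 0 (up to 0.19).

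Detoxifying enzymes formed the list with the most genes higher in line R. Glutathione transferases couple glutathione to reactive compounds, and the aryl hydrocarbon receptor, Ahr, induces cytochromes of which Cyp1b1 is one. Gsta4, which clears lipid aldehydes, gave 333, 411.5 and 380 in line R, against 106, 131.5 and 114 in the knockout and 2529 in the wild type (difference 1.68 ± 0.34, adjusted p = 0.0087). Gstm2 averaged 872.5 in line R and 500.2 in the knockout (adjusted p = 0.0063), Gstm1 1946 and 1217 (adjusted p = 0.046), and Ahr 287 and 149 (adjusted p = 0.022). Cyp1b1 went the opposite way, with 75.7, 127 and 83.9 in line R, against 1023, 919 and 953 in the knockout and 12096 in the wild type (difference -3.37 ± 0.26, adjusted p = 2.5e-07). Ahr was thus higher and this target of it lower in line R. Of 26 NRF2, glutathione and AHR genes 5 rose and 1 fell (23.1% called, against 3.38% of all genes), with a median of 0.127. The fifth that rose was Gsta2, which was below background in both lines. Gstm1 and Gstm2 are close paralogs, and whether their probe sets share signal was not tested. Gstm1 lost its call whichever array was left out (adjusted p up to 0.17), Ahr without knockout replicates 0 or 2 or line R replicates 0 or 2 (up to 0.13) and Gsta2 without knockout replicate 2 (0.058).

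Cholesterol synthesis enzymes had mostly negative differences, of which 4 passed the test. Squalene synthase, Fdft1, gave 2120, 2188 and 2123 in line R, against 5051, 5040 and 4244 in the knockout and 2359 in the wild type (difference -1.15 ± 0.20, adjusted p = 0.002). Squalene epoxidase, Sqle, gave 3464, 3552 and 3657 in line R, against 5600, 5776 and 5008 in the knockout and 3707 in the wild type (-0.62 ± 0.12, adjusted p = 0.0054). For both the knockout was the high line, and line R was near the wild type. With the probe sets of Fdft1 averaged, its difference was -0.36 and not called. Of 18 measured enzymes 4 fell and 0 rose (22.2% called, against 3.38% of all genes). The other 2 were Nsdhl (1404 in line R, 2738 in the knockout) and Hsd17b7 (1362 and 2253), which act after lanosterol. The median of the 18 was -0.605, against 0.05 for all genes. Of the 18, 16 were negative, against 4836 of 10323 genes above background, and 5 were called lower in untreated cells and 10 at 24 h. Nsdhl lost its call without knockout replicates 0 or 1 or line R replicate 1 (adjusted p up to 0.068) and Hsd17b7 without any array but knockout replicate 2 (up to 0.17). None of 13 sterol sensing genes was called (median -0.09).

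Of 17 fatty acid genes 3 fell (17.6%, against 3.38% of all genes), with a list median of -0.13. These were the desaturases Fads2 (1163, 1234 and 1207 in line R, 2112, 2186 and 2161 in the knockout, adjusted p = 0.0042), Scd2 (10672 and 14243 on average, adjusted p = 0.027) and Scd1 (2762 and 3954, adjusted p = 0.050). All 3 lie on chromosome 19, which had the lowest median of all chromosomes (-0.292), and none was called relative to its neighbours (-0.60, -0.07 and -0.17). Scd2 and Scd1 also lost their calls whichever array was left out (adjusted p up to 0.12 and 0.19). The summed level of 5 adipocyte markers, of which Adipoq and Pparg were below background in both lines, was 3959 to 4695 in line R and 5229 to 5828 in the knockout, and its part was not tested.

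Other metabolic lists had few calls. The glucose transporter Slc2a3 gave 124, 96.4 and 98.1 in line R and was below background in the knockout (at least 1.51-fold higher, adjusted p = 0.0028), and Egln3, an oxygen-sensing prolyl hydroxylase, averaged 112.6 in line R and was below background in the knockout (adjusted p = 0.016). These 2 rose and 0 fell among 30 glycolysis and HIF genes (6.67% called, against 3.38% of all genes, median -0.15). Of 24 ATF4 and amino acid stress genes (8.33% called) 1 rose, the factor Cebpg (1935 in line R, 1267 in the knockout). Another 1 fell, Cebpb (3441 and 5322), and the list's median was 0.21. Of 25 lysosome genes (16% called, against 3.38% of all genes) 1 rose, the glucuronidase Gusb (1126 in line R, 786 in the knockout). Another 3 fell, and the list's median was 0.02. Cathepsin K, Ctsk, a collagen-degrading protease of osteoclasts, fell most, with 66.7, 34.5 and 29.4 in line R, against 423, 467 and 443 in the knockout (at least 6.35-fold lower, adjusted p = 2.5e-07). The knockout was the high line for Ctsk, which had a mean of 39.6 in the wild type. The proteases Ctsb (4919 in line R, 7516 in the knockout) and Lgmn (821 and 1260) were lower as well. Cebpg lost its call whichever array was left out (adjusted p up to 0.11), Cebpb without any array but line R replicate 0 (up to 0.12), Egln3 without knockout replicates 1 or 2 or line R replicates 1 or 2 (up to 0.095), Ctsb without knockout replicates 1 or 2 or line R replicates 0 or 2 (up to 0.070) and Lgmn without any array but knockout replicate 0 (up to 0.17).

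Of 29 measured Akt and PI3 kinase genes 1 rose and 1 fell (6.9%, against 3.38% of all genes), with a median of 0.135. Pik3r3, a regulatory subunit of PI3 kinase, gave 741, 703 and 717 in line R, against 372, 406 and 362 in the knockout (difference 0.92 ± 0.13, adjusted p = 0.0005). Phlpp1, a phosphatase that removes an activating phosphate from Akt, gave 738, 614 and 764 in line R, against 1076, 1120 and 1075 in the knockout (-0.63 ± 0.13, adjusted p = 0.0084), and lost its call without line R replicate 1 (0.056). The wild type had 403 for Pik3r3 and 481 for Phlpp1, so line R was the high line for the subunit and lay between the other 2 for the phosphatase. None of 20 FOXO factors and targets was called (median -0.11).

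Of 35 p53 targets 1 (2.86%) was called, a share near that of all genes (3.38%). Cdkn1a gave 154.6, 121 and 172 in line R, against 234, 284 and 193 in the knockout (difference -0.67 ± 0.39, adjusted p = 0.48), with a mean of 2132 in the wild type. Mdm2 averaged 598 in line R and 845 in the knockout (-0.50 ± 0.53, adjusted p = 0.77), and Ccng1 2123 and 1932 (0.14 ± 0.22, adjusted p = 0.88). Both lines were below the wild type for all 3, at 2527 for Mdm2 and 7767 for Ccng1. The called gene was the autophagy gene Dram1, with 1010, 919.5 and 1088 in line R, against 2030, 1811 and 1531 in the knockout (-0.83 ± 0.17, adjusted p = 0.0076), and the list's median was -0.01. None of 19 genes of the p53, INK4 and RB pathway (median -0.12) and none of 15 BCL2 family genes (median -0.18) was called.

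Immediate early genes, which growth factors and stress switch on within minutes, had mostly negative differences, of which 2 passed the test. Nr4a1, a nuclear receptor of this class, gave 431, 302 and 383 in line R, against 876, 830 and 633 in the knockout (difference -1.07 ± 0.25, adjusted p = 0.020). Junb, an AP-1 subunit, gave 644, 734 and 633 in line R, against 1181, 1065 and 1237 in the knockout (-0.79 ± 0.20, adjusted p = 0.033). These were the 2 called of 23 (8.7%, against 3.38% of all genes), but the list's median was -0.539. Of 21 members above background 18 were negative, against 4836 of 10323 genes above background. Among 12 feedback inhibitors of ERK signalling Dusp6, a phosphatase of ERK, gave 348, 238 and 349 in line R, against 760, 775.5 and 744 in the knockout (-1.31 ± 0.28, adjusted p = 0.012), and Phlda1 averaged 917 and 1881 (-1.04 ± 0.25, adjusted p = 0.022). These 2 were 16.7% of the 12, whose median was -0.386, and none rose. Junb lost its call whichever array was left out (adjusted p up to 0.12), Nr4a1 without knockout replicates 0 or 1 or line R replicates 1 or 2 (up to 0.11), Dusp6 without replicate 1 of either line (up to 0.071) and Phlda1 without line R replicate 1 or any knockout array (up to 0.14).

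Cell cycle and repair genes showed small differences. None of 39 S phase and E2F genes was called (median 0.02). The median of 39 G2 and mitosis genes was -0.252, against -0.076 in untreated cells and -0.207 at 24 h. Of these 39, 36 were negative, against 4836 of 10323 genes above background, and 2 were called lower (5.13%, against 3.38% of all genes). Those were Prc1, which bundles spindle microtubules, with 1850, 2111 and 2056 in line R, against 2838, 2914 and 3113 in the knockout (difference -0.56 ± 0.14, adjusted p = 0.025), and the kinetochore protein Ndc80 (1042 in line R, 1591 in the knockout, adjusted p = 0.037). Xrcc5, which encodes the Ku80 subunit of the end joining machinery, gave 847, 876 and 891 in line R, against 446, 529 and 436.5 in the knockout (0.89 ± 0.16, adjusted p = 0.0036). Trp53bp1, which binds chromatin at breaks, averaged 2910 and 2042 (adjusted p = 0.045). It and Xrcc5 were the 2 called (8.7%) of 23 break sensing and end joining genes, both higher (median 0.06). Of 19 homologous recombination genes 1 (5.26%) was called, Brca1 (1739 in line R, 1250 in the knockout, adjusted p = 0.016, list median 0.12). Prc1 and Trp53bp1 lost their calls whichever array was left out (adjusted p up to 0.12 and 0.16), Ndc80 without any array but line R replicate 1 (up to 0.17) and Brca1 without knockout replicates 0 or 1 or line R replicates 0 or 2 (up to 0.090).

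**Figure D4:**
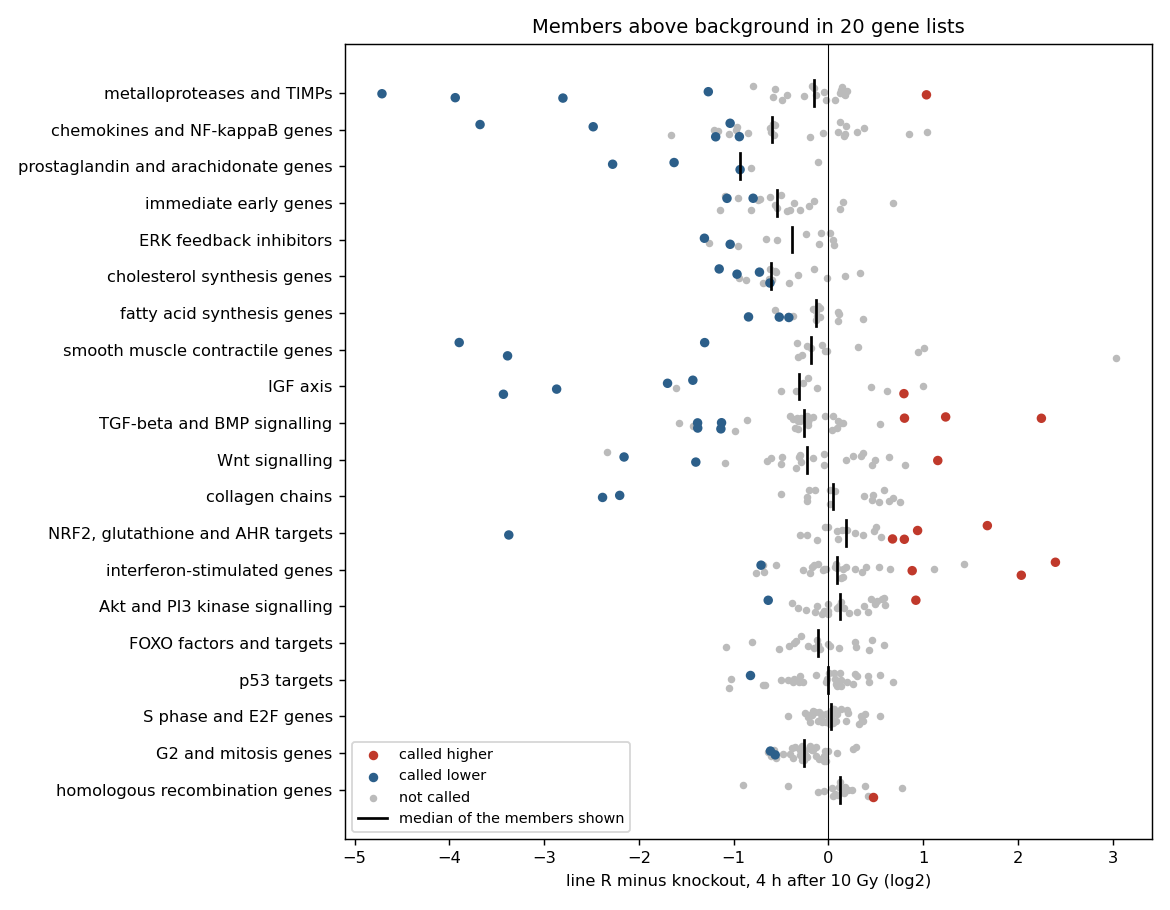
Difference between line R and the knockout 4 h after 10 Gy (log2, horizontal axis) of the members of 20 gene lists that were above background in at least 1 of the lines; each point is a gene, coloured red or blue where called, and bars are medians of the members shown. Mmp2, Mmp3, Cnn1 and Saa3 lie at the far left, and 36 of 39 G2 and mitosis genes lie left of 0 with 2 called. Of all 10323 genes above background 4836 were negative.

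Further genes among the 30 with the largest differences belong to none of these groups. Itm2a, a transmembrane protein found in cartilage and activated T cells, gave 2579, 2859 and 2404 in line R, against 492, 442 and 470 in the knockout (difference 2.48 ± 0.29, adjusted p = 4.2e-05). Nrk, a kinase of the germinal centre family, gave 363, 272 and 363 in line R and was below background in the knockout (at least 4.72-fold higher, adjusted p = 0.00033). The wild type had 215 for Itm2a and, below background, 54.6 for Nrk. The tetraspanin Cd82 gave 470.2, 461 and 521 in line R, against 112, 112 and 142 in the knockout (3.99-fold higher, adjusted p = 8.8e-06), and was not called with its probe sets averaged (0.82 on the log2 scale). The iron exporter Slc40a1, ferroportin, gave 314, 587.5 and 243 in line R, against 79.6, 86.7 and 84.2 in the knockout (2.09 ± 0.47, adjusted p = 0.016). The arginine transporter Slc7a3 averaged 621 and 170.2, the caveola component Cavin4 241.9 and 69.9, and Depdc7 304 and 90.3. These 3 passed the test whichever array was left out, whereas Slc40a1 lost its call without line R replicate 1 or any knockout array (adjusted p up to 0.096).

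Among those lower in line R, Apoe, the lipid carrier, gave 87.5, 38.8 and 73.5, against 470, 470 and 288 in the knockout and 1440 in the wild type (at least 5.72-fold lower, adjusted p = 5.3e-05). The gut and brain peptide Cck gave 17.0, 30.3 and 53.6 in line R, against 428, 453 and 349 in the knockout (at least 5.83-fold lower, adjusted p = 2e-05). The sialic acid receptor Siglecg gave 139, 200 and 114 in line R, against 1089, 1048 and 1472 in the knockout and 283.5 in the wild type (difference -3.02 ± 0.43, adjusted p = 0.00046). Syce2, a protein of the synaptonemal complex of meiosis, averaged 59.1 in line R, 570.3 in the knockout and 39.8 in the wild type, and the synaptotagmin Syt13 53.4, 355 and 16.4. For Syce2 and Syt13 the knockout was thus the only one of the 3 lines with a mean above background at 4 h, and Syt13 lost its call without knockout replicate 1 or line R replicate 0 (adjusted p up to 0.056). Of the 30, 29 were called the same way in untreated cells and 29 at 24 h. Other probe sets were at hand for 14 of the 30. Of 20 such probe sets 14 were above background in at least 1 of the lines, all 14 with the same sign and 9 called. Some of them passed that filter only through the line where they were high, so the shared sign is a description. The other probe set of Cd82, below background in both lines, had the opposite sign (-0.345).

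The differences were also ordered along chromosomes. The median difference of genes above background ran from -0.292 on chromosome 19, with 0 genes higher and 32 lower, to 0.189 on chromosome 4, and 14.7% of such genes on chromosome 12 and 10.9% on chromosome 14 were called. Blocks of 25 neighbouring genes above background in the gene order of the RefSeq table were formed (403 blocks, the last of a chromosome larger), an analysis chosen after the data had been seen. Block medians at 4 h correlated with those in untreated cells at r = 0.924 and with those at 24 h at r = 0.859, across blocks of the same lines on other arrays. In 7 stretches at least 3 blocks in a row had medians beyond 0.25 in 1 direction. Chromosome 12 held 5 blocks from Rab10os to Trappc6b with medians of 0.36 to 0.47 and 4 blocks from Ahsa1 to Sp4, the stretch with Akt1, with medians of -0.60 to -0.35. Relative to the wild type at 4 h, the mean of the medians of these 4 blocks was -0.93 in line R and -0.43 in the knockout. On chromosome 14, 6 blocks from Pck2 to Tmtc4 had medians of -0.53 to -0.38, and 23 genes there were lower and 0 higher. On chromosome 11, 9 blocks from Utp18 to Sap30bp had medians of 0.29 to 0.40, with 21 genes higher and 1 lower. The other 3 were 3 blocks of chromosome 17, higher, and 6 and 4 blocks of chromosome 19, lower.

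The stretches were chosen by the same 4 h differences that the calls rest on, so the calls in them are a description: 120 of 967 genes (12.4%), 113 of them in the direction of their stretch, against 4.77% of the genes outside. Measured relative to the median of their blocks, 340 genes were called, 284 of them among the 615. Brca1 (chromosome 11, 0.11 relative to its block), Ctsb (chromosome 14, -0.12) and Lgmn, Fbln5 and Tnfaip2 (chromosome 12, -0.09, -0.53 and -0.69) lie in such stretches and lost their call. So did Bmp1 (chromosome 14, -0.68), Ahr and Egln3 (chromosome 12, 0.45 and 1.24) and the 3 desaturases of chromosome 19. Fdft1 and Stc1 lie in lower stretches and kept it. Igfbp4 kept it too, but it was lower in line R and lies in the higher stretch of chromosome 11. DNA copy number was not analysed here, and the cause of the ordering was not tested.

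**Figure D5:**
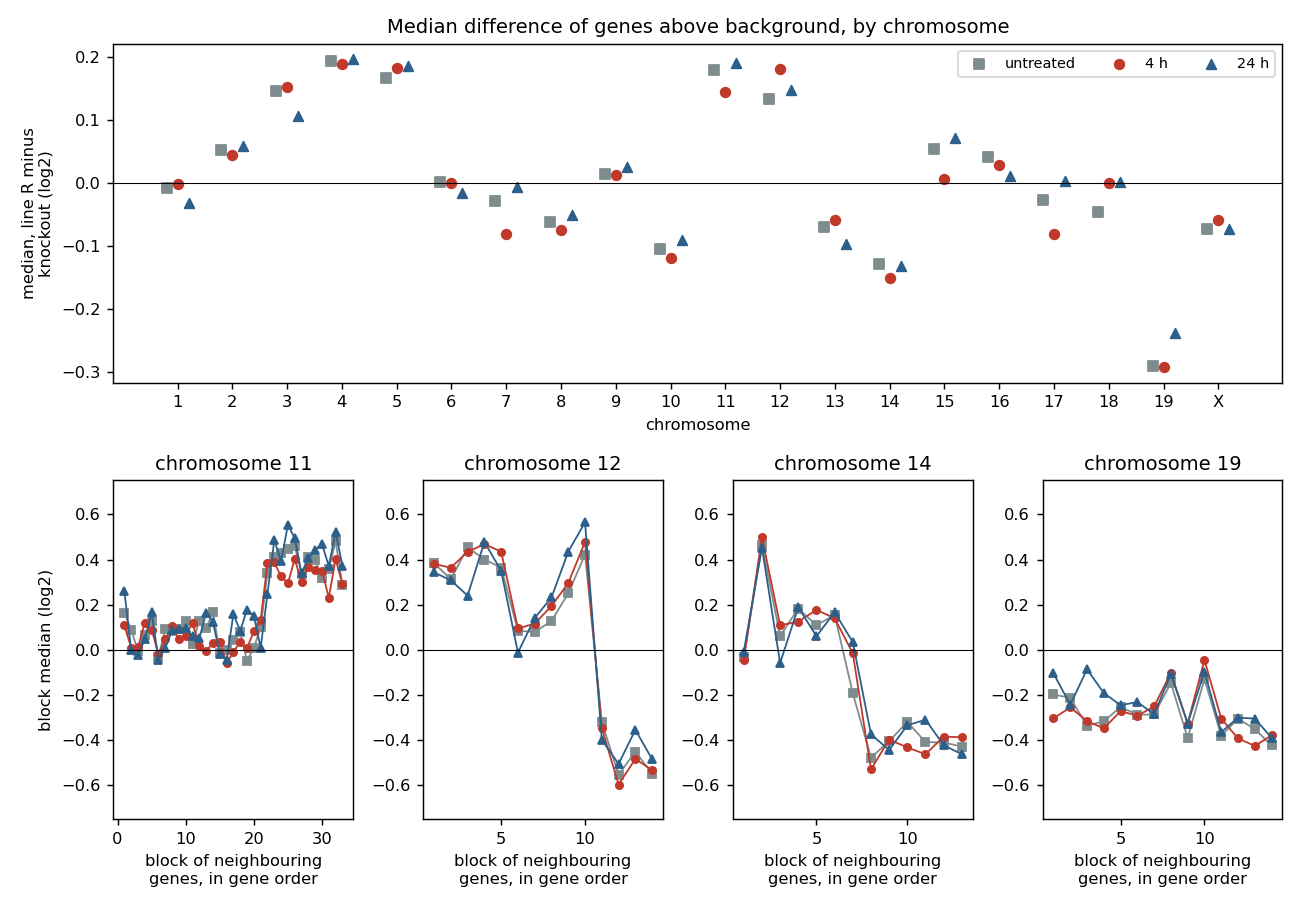
Median difference between line R and the knockout (log2) of genes above background, by chromosome (top) and in blocks of 25 neighbouring genes along chromosomes 11, 12, 14 and 19 in gene order (bottom); grey squares are untreated cells, red circles 4 h and blue triangles 24 h after 10 Gy. The lower blocks at the end of chromosomes 12 and 14 and the higher ones at the end of chromosome 11 recur in all 3 stages.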

How the data were processed

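Total RNA from 27 cultures was labelled with biotin for Affymetrix arrays, per the labels' protocols. The authors deposited a linear intensity for each of 45101 probe sets and scaled every array to a trimmed mean of 500.003. RMA and GCRMA are named, without versions, per the submitters' processing notes, but how probes were summarised is not given in the sources used here. Arrays carry no counts, so their number limits the precision.

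Intensities were taken to log2 with no offset. For each gene the brightest probe set was used among those with 1 gene symbol in the platform annotation (34945 probe sets, 18193 genes). Differences were tested with limma 3.58.1 (R 4.3.3) on 9 group means, two-sided, with Benjamini-Hochberg adjustment over all genes and calls at an adjusted p below 0.05. Values after ± are SEs of log2 differences, and levels are geometric means of 3 arrays. Where a group mean was below background, the fold is a lower bound against the background level of 69.9. With 3 against 3 arrays an exact permutation test cannot go below p = 0.1, so none was made. The fit was checked on simulated data.

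The comparison, the 37 gene lists and the markers were chosen with earlier results of these data known. Named genes are up to 15 with the largest called differences in each direction, up to 4 of each list with the smallest p, Akt1, Akt2, Cdkn1a, Mdm2, Ccng1 and Xist. Markers, Thy1 among them, and Timp1, Timp2, Timp3, Fbln5, Ebf3, Meis1, Ifit2, Bmper, Bmp1, Bmpr1b, Igfbp6, Gstm1 and Ahr, were added after their values were seen, the called ones to complete small counts. Replicate numbers did not pair the arrays: deviations of same-numbered arrays correlated at 0.084, -0.178 and -0.208. Alternatives were the replicate block, the 6 arrays alone, other normalizations and filters, other probe set rules, and leaving out arrays.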

Additional observations from a re-analysis of the deposited data

How the results depend on the processing

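The 615 calls at 4 h became 1440 (750 higher, 690 lower) without 5 arrays of other groups with a high Gapdh ratio, 267 to 336 when 1 of the 6 arrays was left out, and 340 relative to block medians, an alternative added after the data were seen. With the replicate block 591 were called, 545 of them among the 615; the numbers do not pair the arrays, and the correlations are given with the processing. The 6 arrays alone gave 552 calls (297 shared), averaged probe sets 424 (328 shared), and quantile normalization 522. Equal array medians moved the median difference of all genes to -0.10 and gave 506 calls, 132 higher and 374 lower, so 26.1% were higher in place of 55%. Of 107 called genes named in the text 36 kept direction and call under all alternatives run. The call was lost by 41 with averaged probe sets (also Slc2a3, Stc1 and Gusb), 41 with the 6 arrays alone (also Mgp, Cnn1, Dram1 and Gstm2), 38 relative to block medians, 19 with equal medians (also Gsta4), 12 with quantile normalization, 3 with the replicate block (Scd1, Ebf3 and Igfbp6), and 33 to 47 when an array was left out. Of the 107, 1, Meis1, turned its sign under these alternatives, at 0.04 where probe sets were averaged. Of genes that were not called, Akt1 was at 0.55 with averaged probe sets, Akt2 between -0.109 and 0.0661 when 1 array was left out and at 0.17 relative to its block, and Ccng1 at -0.0147 with equal medians; the cause was not tested. Dim genes varied most between replicates, so differences near background are the least certain.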

Other observations

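Some lists without a called member or with 1 are given here as values. None of 33 measured HOX genes, which record position along the body axis, was called at 4 h. Of the 11 above background 10 were positive (median 0.297), against 5485 of 10323 genes above background. Of the 33, 3 were called higher at 24 h and 2 lower in untreated cells. None of 18 Notch genes (median 0.13) and none of 10 Hedgehog genes (median -0.19) was called. Of 25 ribosome biogenesis genes 1 fell (4.0%, against 3.38% of all genes), and the list's median was -0.14. This was the MYC antagonist Mxi1, with 514, 636 and 585 in line R, against 876, 878.5 and 917 in the knockout (difference -0.63 ± 0.13, adjusted p = 0.012). Mxi1 lies in a lower stretch of chromosome 19, was not called relative to its block (-0.24), and lost its call without line R replicate 0 (adjusted p = 0.073).

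Xist, the RNA that coats the inactive X, averaged 8982 in line R, 7538 in the knockout and 11710 in the wild type (adjusted p = 0.56 between line R and the knockout), and no other member of the list of 8 X chromosome RNAs and Y-linked genes was above background in these 2 lines. Of 10092 probe sets with no or several gene symbols, which the comparison of genes does not use, 71 were called between line R and the knockout at 4 h, 38 higher and 33 lower, which is 0.704%, against 1.3% of all 45037 probe sets.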
